A study of Mus musculus with 3 samples.

Results

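The Slc25 genes encode the mitochondrial carriers, membrane proteins that move metabolites across the inner membrane of mitochondria. Members were taken by name, as every gene symbol made of Slc25a and a number, and 47 of the 41743 symbols in the count tables fit. They were sorted by textbook substrate into 11 classes. The libraries came from K7M2, a mouse osteosarcoma cell line. All of them share a genotype, Ezrin -/- transfected with Ezrin T567A, in which CRISPR/Cas9 removed the cells' own ezrin and a stable transgene supplies the mutant. RNA was recovered by immunoprecipitation (IP) and sequenced, with 2 libraries from an anti-ezrin antibody (replicates 1 and 2) and 1 from normal mouse IgG, which serves as the background. No treatment was given, and no group carries wild-type ezrin.

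Most carriers of this family sit in the inner membrane and exchange a substrate of the matrix for one of the intermembrane space. The ADP/ATP carriers and the phosphate carrier feed ATP synthase and export its product. Other members pass amino acids, carboxylates, cofactors, nucleotides or iron, and some have no settled substrate. All are encoded in the nucleus, translated in the cytosol and imported, so their messages are cytosolic RNAs and not RNAs made inside mitochondria.

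The ezrin libraries (replicates 1 and 2) held 19676595 and 16196329 counts and the IgG library 10124580, and the IgG library differed from both ezrin libraries in the kinds of RNA it held. Remnants of ribosomal RNA (Gm26917 and Gm42418) took 0.122% and 0.198% of counts in the ezrin libraries against 16.5% in IgG, and mitochondrially encoded genes 0.0120% and 0.0163% against 0.358%. Of 9 osteoblast markers, Col1a1, Col1a2, Sparc, Spp1 and Runx2 were well counted, Alpl had 28 and 17 counts in the ezrin libraries against 33 in IgG, and Sp7, Bglap and Ibsp had 1 count or none in each library. By the edgeR test used for the carriers, Col1a2 (log2 fold 1.13), Sparc (0.73) and Spp1 (1.14) were higher with the ezrin antibody, Runx2 (−0.73) and Alpl (−1.50) were lower and Col1a1 (0.34) was not called. The part of these differences in those of the carriers was not tested. Markers of brown fat were at 0 and those of muscle, testis germ cells, erythroid cells and hepatocytes had at most 7 counts per library. Of 5 macrophage markers, Ptprc and Adgre1 were at 0 and Itgam and Cd68 had at most 7 counts, while Csf1r had between 11804 and 19345.

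Carrier messages were split between the IP libraries. Those of the main energy carriers (the ADP/ATP exchangers Slc25a4 and Slc25a5, the phosphate carrier Slc25a3) and of both aspartate/glutamate carriers were higher with the ezrin antibody. Those of both iron carriers, of Slc25a44 and of Slc25a30 were lower. The quasi-likelihood test of edgeR was run on 12478 genes, with p-values adjusted over all of them by Benjamini-Hochberg. By it, 9 of 37 tested carriers were higher (24.3%, against 19.0% of all tested genes) and 10 were lower (27.0%, against 17.4%), and 18 were not called. Called means an adjusted p under 0.05. Together 51.4% of the tested carriers were called, against 36.4% of all tested genes. Of the called carriers, 7 higher and 6 lower ones differed at least 2-fold, which is 35.1% of the tested carriers against 19.4% of all tested genes. The median log2 fold (ezrin over IgG) was −0.11 over the 37 carriers and −0.02 over all tested genes. For all 19 called carriers, both ezrin libraries lay on the called side of IgG. This is no separate support, because the calls rest on the same counts, and the share among all called genes was not counted. Among all 37, both ezrin libraries were above IgG for 15 (40.5%, against 42.6% of all tested genes) and below it for 17 (45.9%, against 44.3%), and 5 straddled it. Whether separate cultures gave the ezrin libraries is not stated in the labels, so the p-values measure only the spread between these samples, which may be technical, and the lone IgG library is taken to vary as they do.

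**Figure D1:**
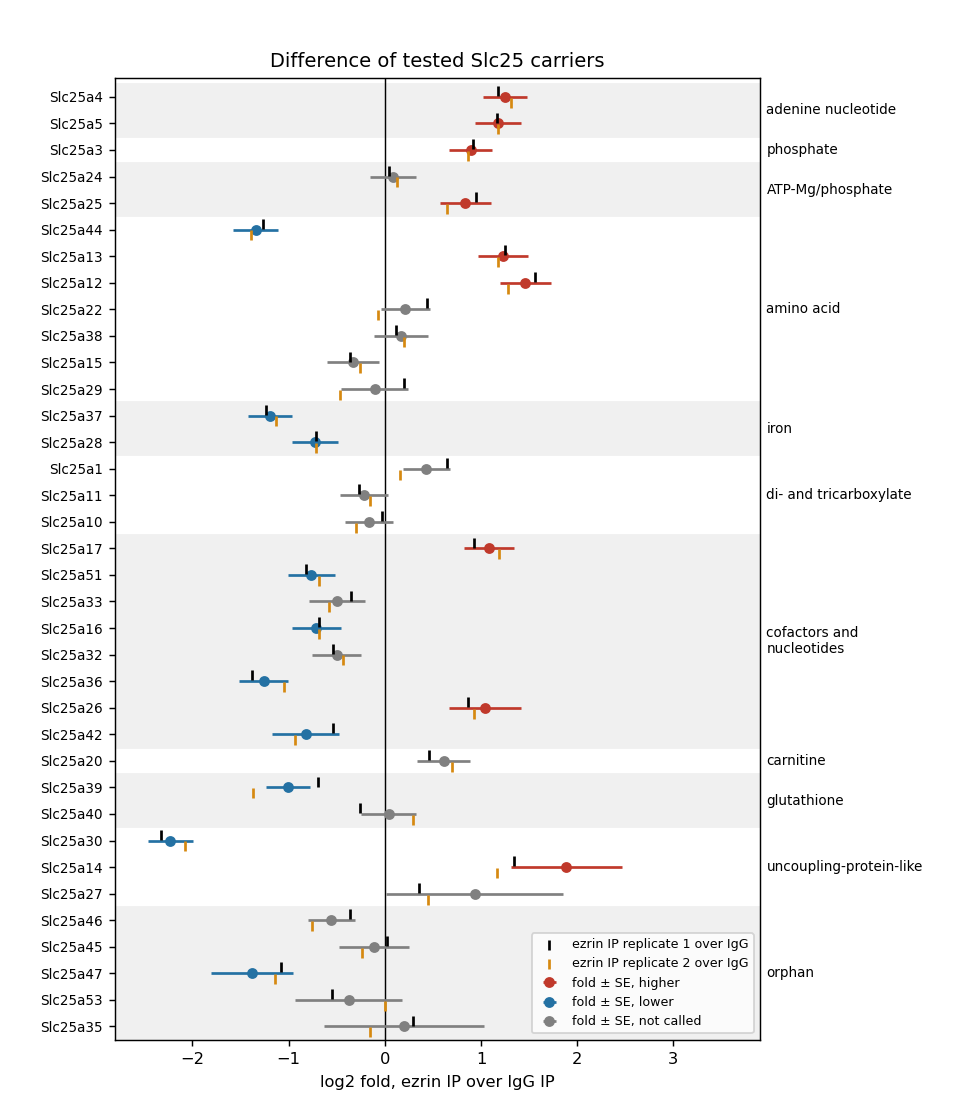
Log2 fold of ezrin IP over IgG IP for 36 of the 37 tested Slc25 carriers, grouped by substrate class, with the edgeR value and its standard error (dots and bars) and the plain ratio of each ezrin library to IgG with 1 CPM added to both sides (ticks). Slc25a14 lies highest at 1.89 and Slc25a30 lowest at −2.23. The iron class holds only lower carriers (2 tested), a call made for 17.4% of all tested genes.

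Counts of the whole family made up 0.403% (exact Clopper-Pearson 95% interval 0.400 to 0.405, for counting error only) and 0.405% (0.401 to 0.408) of the counts in ezrin replicates 1 and 2, against 0.272% (0.269 to 0.275) in IgG. These totals include the remnants of ribosomal RNA (16.5% of counts in IgG, 0.122% and 0.198% in the ezrin libraries), which lower the IgG share. Within the family, 3 genes together took a larger share with the ezrin antibody, and the pooled share of the other 44 was smaller. The other 44 were not uniform. Of the 34 tested among them, 6 were called higher (17.6%, against 19.0% of all tested genes) and 10 lower (29.4%, against 17.4%). Slc25a3, Slc25a4 and Slc25a5 together had 2649 and 2702 CPM in the ezrin libraries against 1285 CPM in IgG, a 2.08-fold ratio of the ezrin mean to IgG. CPM are counts scaled to 1e6 per library, after TMM, so they give shares of the RNA recovered and not its amount. The other 44 carriers summed to 1299 and 1205 CPM in the ezrin libraries against 1595 CPM in IgG, a ratio of 0.785. The 3 genes thus held 67.1% and 69.2% of the family's counts in the ezrin libraries and 44.6% in IgG.

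**Figure D2:**
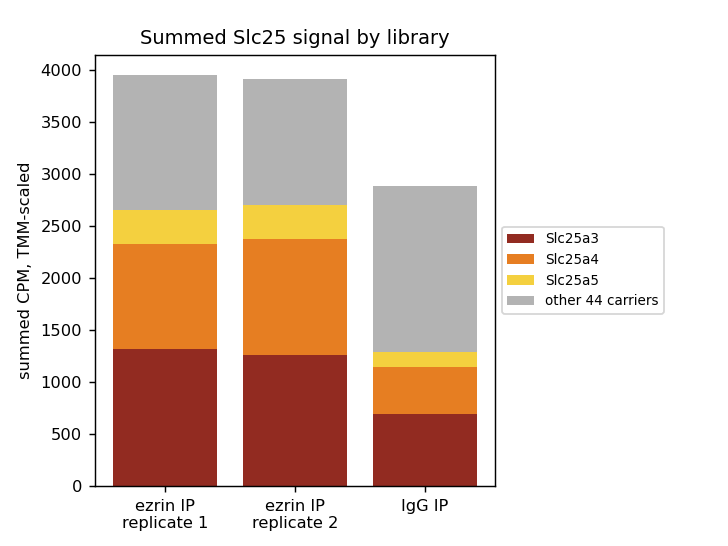
Summed CPM of the Slc25 family in each library, stacked by Slc25a3, Slc25a4, Slc25a5 and the other 44 carriers. The 3 named genes sum to 2649 and 2702 CPM in the ezrin libraries and 1285 CPM in IgG, while the other carriers sum to less in each ezrin library than in IgG.

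The ADP/ATP carriers swap cytosolic ADP for matrix ATP. Slc25a4 (ANT1, chromosome 8, 46207168 to 46211062, GRCm38) had 1011 and 1114 CPM in ezrin replicates 1 and 2, against 447 CPM in IgG. Its mean in the ezrin libraries was 1062 ± 72.6 CPM (SD, n = 2) and its log2 fold 1.25 (SE 0.23, edgeR adjusted p = 7.15e-07). Slc25a5 (ANT2, chromosome X, 36795597 to 36798808), the form of dividing cells, had 324 and 327 CPM, against 144 CPM in IgG, with log2 fold 1.18 (SE 0.24, edgeR adjusted p = 1.48e-05). Both ezrin libraries lay above IgG for each gene, by more than the gap between them. Per length, in RPKM (counts per kilobase of gene and per 1e6 reads, as deposited), Slc25a4 stood at 360 and 408 in the ezrin libraries against 123 in IgG, and Slc25a5 at 165 and 171 against 56.7. The level of Slc25a4 over that of Slc25a5 in RPKM was therefore 2.18 and 2.38 in the ezrin libraries and 2.17 in IgG. These genes are close paralogs, and the labels and files do not say how reads that match several places were counted, so the split between them is uncertain. After cyclic loess, which removes a trend on expression level, the log2 fold of Slc25a4 shrank to 0.66 (limma adjusted p = 0.0139). The third member, Slc25a31 (ANT4), which mouse testis germ cells express, had no count in any library.

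The phosphate carrier brings inorganic phosphate into the matrix for ATP synthesis. Slc25a3 (chromosome 10, 91116574 to 91124046) was the carrier with the most counts, at 1315 and 1261 CPM in the ezrin libraries against 694 CPM in IgG. Its log2 fold was 0.89 (SE 0.22, edgeR adjusted p = 3.80e-04). After cyclic loess the fold was 0.24 and the call was lost (limma adjusted p = 0.373). Its RPKM was 199 and 196 against 81.2, below that of Slc25a4, because the gene length behind the RPKM is 5550 bases for Slc25a3 and 2353 for Slc25a4.

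The ATP-Mg/phosphate carriers, which calcium regulates, adjust the adenine nucleotide pool of the matrix. Slc25a25 had 43.2 and 34.9 CPM in the ezrin libraries against 21.8 CPM in IgG and was higher (log2 fold 0.84, SE 0.27, edgeR adjusted p = 0.00707). It overlaps Naif1 by 1014 bases, and without known use of strand the reads of overlapping genes cannot be told apart. Slc25a24, the more abundant paralog, had 148 and 156 CPM against 143 CPM, a difference that was not called (log2 fold 0.09, edgeR adjusted p = 0.806). Slc25a23 and Slc25a41 had at most 2 counts in a library and were not tested.

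**Figure D3:**
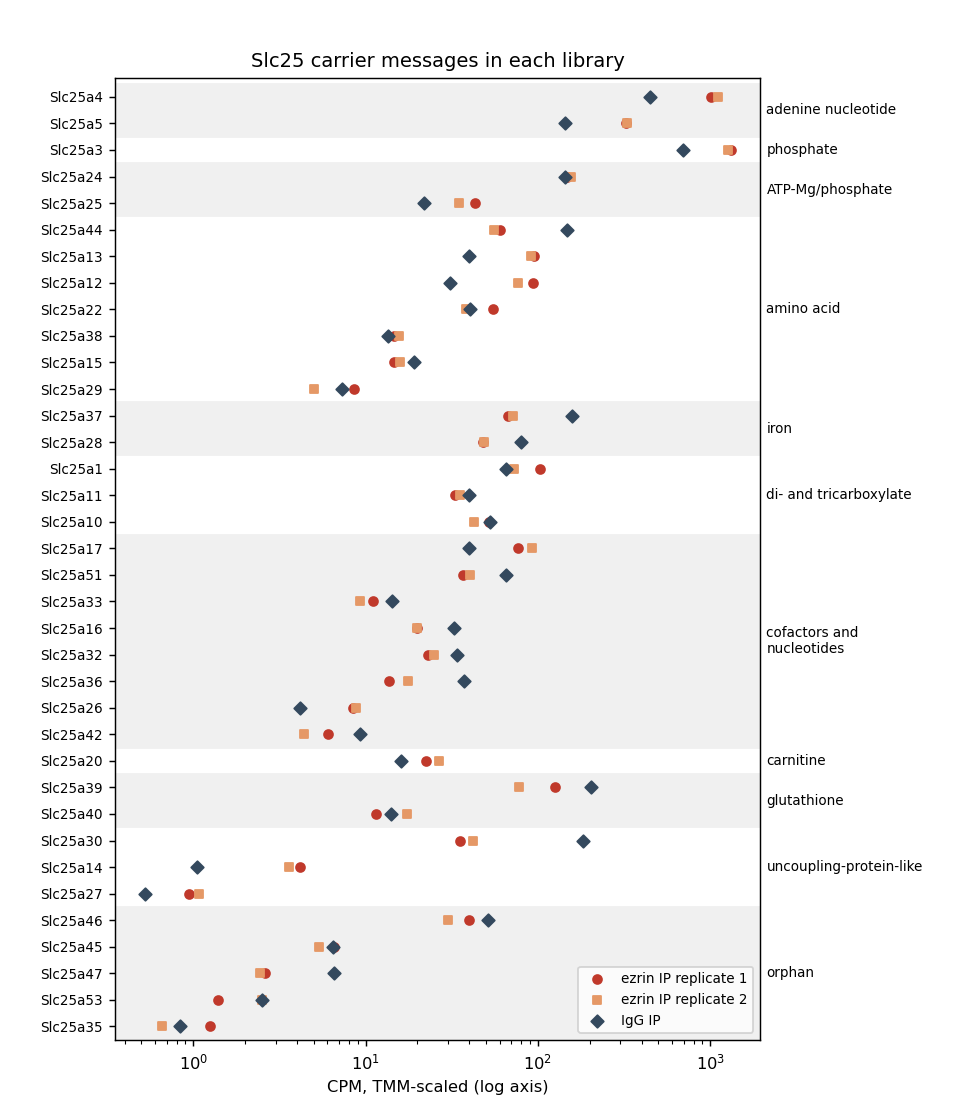
CPM after TMM scaling of 36 of the 37 tested Slc25 carriers in ezrin IP replicates 1 and 2 and IgG IP, on a log axis, grouped by substrate class and ordered within a class by RPKM. Slc25a3 and Slc25a4 exceed 1000 CPM in both ezrin libraries and stay below that in IgG, and the ezrin points lie close together for most carriers.

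Among the amino acid carriers, the pair that exchanges aspartate for glutamate was higher, Slc25a44 was lower and the other 4 tested members were not called. The called share of the class was 42.9%, against 36.4% of all tested genes. Slc25a12 (aralar, chromosome 2, 71274270 to 71367781) had 93.2 and 76.5 CPM in the ezrin libraries against 30.8 CPM in IgG, with log2 fold 1.46 (SE 0.27, edgeR adjusted p = 7.71e-07). Slc25a13 (citrin, chromosome 6, 6041218 to 6217304) had 95.5 and 90.98 CPM against 39.7 CPM, with log2 fold 1.23 (SE 0.26, edgeR adjusted p = 2.40e-05). Both ezrin libraries lay above IgG for each of them, by more than the gap between the ezrin libraries. Slc25a44 (chromosome 3, 88410494 to 88425141), a carrier of branched-chain amino acids, went the other way, at 60.4 and 55.6 CPM against 147 CPM (log2 fold −1.34, SE 0.23, edgeR adjusted p = 1.71e-07). These 3 calls held under every alternative with a test.

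The amino acid carriers without a call had smaller differences. The glutamate carrier Slc25a22 had 54.9 and 38.4 CPM in the ezrin libraries against 40.2 CPM in IgG, and the basic amino acid carrier Slc25a29 had 8.52 and 5.01 against 7.32 CPM, so IgG fell between the ezrin libraries for both. The ornithine carrier Slc25a15 had 14.7 and 15.9 against 19.1 CPM, and the glycine carrier Slc25a38 had 14.7 and 15.6 against 13.5 CPM. Their log2 folds ran from −0.33 to 0.21, with edgeR adjusted p between 0.351 and 0.838. The second glutamate carrier Slc25a18 and the second ornithine carrier Slc25a2 had at most 5 counts in a library. The median log2 fold of the 7 tested members was 0.17.

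Aralar and citrin work with a set of enzymes in the malate-aspartate shuttle, which carries reducing equivalents into mitochondria. All 4 enzymes of the shuttle were higher, a call made for 19.0% of all tested genes. The cytosolic malate dehydrogenase Mdh1 had 119 and 114 CPM in the ezrin libraries against 40.5 CPM in IgG (log2 fold 1.52, edgeR adjusted p = 1.60e-07). Its mitochondrial counterpart Mdh2 had a log2 fold of 0.89, and the cytosolic and mitochondrial aspartate aminotransferases Got1 and Got2 had 1.004 and 0.91, with edgeR adjusted p of at most 0.00144. Got2 lost its call after cyclic loess (log2 fold 0.51, limma adjusted p = 0.0644). The carrier that returns oxoglutarate and malate in this shuttle, Slc25a11, was not called, at 32.9 and 35.5 CPM against 39.7 CPM (log2 fold −0.22, edgeR adjusted p = 0.526).

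The mitoferrins bring iron into mitochondria for heme and iron-sulfur clusters, and both were lower, a call made for 17.4% of all tested genes. Slc25a37 (mitoferrin 1, chromosome 14, 69241848 to 69285544) had 66.9 and 71.8 CPM in the ezrin libraries against 159 CPM in IgG, with log2 fold −1.19 (SE 0.23, edgeR adjusted p = 4.05e-06). Slc25a28 (mitoferrin 2, chromosome 19, 43663801 to 43675006) had 48.3 and 48.5 CPM against 80.1 CPM, with log2 fold −0.73 (SE 0.24, edgeR adjusted p = 0.0101). The ezrin libraries were close to each other and below IgG for both genes. With RPKM in place of counts, which raised the median log2 fold of all genes by 0.24 to 0.36, Slc25a28 had log2 folds of −0.31 and −0.33 and was not called (limma adjusted p = 0.252 and 0.244). Slc25a37 passed there too (limma adjusted p = 0.0190 and 0.0211).

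The carboxylate carriers, with 3 tested, showed no called difference, against 36.4% of all tested genes called. Slc25a1, which exports citrate for lipid synthesis, had 103 and 73.0 CPM in the ezrin libraries against 65.1 CPM in IgG (log2 fold 0.43, edgeR adjusted p = 0.162), and it passed on the higher side with RPKM (limma adjusted p = 0.0282 and 0.0349). The dicarboxylate carrier Slc25a10 had 51.8 and 42.7 against 52.9 CPM (log2 fold −0.16, edgeR adjusted p = 0.646). The oxodicarboxylate carrier Slc25a21 had at most 2 counts. The carnitine/acylcarnitine carrier Slc25a20, which takes fatty acids in for oxidation, had 22.3 and 26.6 against 16.0 CPM and lay just outside the threshold (log2 fold 0.61, edgeR adjusted p = 0.0645). With library size as the only scaling, with no filter and with RPKM it passed (adjusted p between 0.0225 and 0.0460). These settings also moved the median log2 fold of all genes up, by 0.12 with library size and 0.094 with no filter. With RPKM, under which Slc25a1 passed too, it moved up by 0.24 to 0.36.

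Carriers of cofactors and nucleotides divided, with 2 higher and 4 lower of 9. The higher share (22.2%) was near the 19.0% of all tested genes, and the lower share was 44.4% against 17.4%. Slc25a17, a carrier of peroxisomes rather than mitochondria, had 76.7 and 92.5 CPM in the ezrin libraries against 40.0 CPM in IgG (log2 fold 1.08, SE 0.26, edgeR adjusted p = 2.32e-04). Slc25a26, which imports S-adenosylmethionine, had 8.42 and 8.82 against 4.18 CPM (log2 fold 1.04, edgeR adjusted p = 0.0186) but did not pass with DESeq2 (adjusted p = 0.180), and it overlaps the gene Lrig1 by 131 bases. The lower ones included Slc25a36, a carrier of pyrimidine nucleotides, at 13.7 and 17.6 against 37.4 CPM (log2 fold −1.26, edgeR adjusted p = 7.38e-06). With 0.1 added to RPKM its call was lost (limma adjusted p = 0.0587).

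Among the rest of that class, both carriers tied to coenzyme A were lower. Slc25a16 had 19.8 and 19.9 CPM in the ezrin libraries against 32.5 CPM in IgG (log2 fold −0.71, edgeR adjusted p = 0.0168), and Slc25a42 had 6.08 and 4.41 against 9.30 CPM (log2 fold −0.82, edgeR adjusted p = 0.0497). The call of Slc25a42 failed under all 8 alternatives that tested it (adjusted p between 0.0537 and 0.347), and that of Slc25a16 under 5 of 9 (adjusted p between 0.0534 and 0.376). The NAD carrier Slc25a51 was lower too, at 36.7 and 40.4 against 65.4 CPM (log2 fold −0.76, edgeR adjusted p = 0.00727), and was not called with RPKM (limma adjusted p = 0.263 and 0.240). The folate carrier Slc25a32 and the pyrimidine nucleotide carrier Slc25a33 each had log2 fold −0.50 and were not called (edgeR adjusted p = 0.106 and 0.178), although Slc25a32 passed when only genes with a mean CPM of 10 or more were tested (edgeR adjusted p = 0.0467).

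The glutathione carriers differed from each other in call, with 1 of 2 called, against 36.4% of all tested genes. Slc25a39 had 125 and 77.9 CPM in the ezrin libraries against 203 CPM in IgG and was lower (log2 fold −1.003, SE 0.23, edgeR adjusted p = 1.16e-04). Its ezrin libraries were far apart, with plain log2 ratios to IgG of −0.70 in replicate 1 and −1.37 in replicate 2, and with RPKM it was not called (limma adjusted p = 0.0866 and 0.103). Slc25a40 had 11.5 and 17.3 against 14.0 CPM, so IgG fell between the ezrin libraries (log2 fold 0.04, edgeR adjusted p = 0.929). The difference between the paralogs was not tested.

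The carriers related to uncoupling proteins held both extremes of the family. Slc25a30 (KMCP1, chromosome 14, 75757534 to 75787037) had 35.4 and 42.2 CPM in the ezrin libraries against 182 CPM in IgG, which is 4.69-fold lower (log2 fold −2.23, SE 0.23, edgeR adjusted p = 1.38e-19). It was the tested carrier with the lowest fold, and its call held under every alternative with a test. Slc25a14 (UCP5, chromosome X, 48623418 to 48662298) had the highest fold and was rare, with 84 and 60 counts in the ezrin libraries against 10 in IgG. Its log2 fold was 1.89 (SE 0.57, edgeR adjusted p = 0.00472). DESeq2 did not call it (adjusted p = 0.112), and with 1 CPM added to both sides the log2 ratio was 1.34 in replicate 1 and 1.16 in replicate 2. Slc25a27 (UCP4), with 19 and 18 counts against 5, was not called (log2 fold 0.94, edgeR adjusted p = 0.445).

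Carriers placed in the orphan class were mostly rare. Slc25a47 was its only called member, with 52 and 41 counts in the ezrin libraries against 63 in IgG, or 2.59 and 2.44 against 6.58 CPM (log2 fold −1.38, SE 0.43, edgeR adjusted p = 0.00520), a call that DESeq2 did not make (adjusted p = 0.159). Slc25a46, a protein of the outer membrane that takes part in mitochondrial shape, was the most abundant, at 39.7 and 30.05 CPM against 51.3 CPM (log2 fold −0.56, edgeR adjusted p = 0.0623). It passed on the lower side after cyclic loess (limma adjusted p = 0.0489) and among genes with a mean CPM of 10 or more (edgeR adjusted p = 0.0230). Slc25a45, Slc25a35 and Slc25a53 had log2 folds of −0.11, 0.20 and −0.37 and edgeR adjusted p between 0.631 and 0.874. The class median over the 5 tested members was −0.37, and −0.02 after cyclic loess. Slc25a34 and Slc25a48 had no count, and Slc25a43 and Slc25a54 at most 3.

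Altogether, 10 of the 47 carriers had too few counts to test. Of these, 4 had no count (Slc25a31, Slc25a34, Slc25a41, Slc25a48) and 6 had at most 5 in a library. A count of 0 allows up to 0.152 and 0.185 CPM in ezrin replicates 1 and 2 and 0.296 CPM in IgG (3 counts of the total), so lower levels were not detectable at this depth.

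By rank over the tested carriers, neither level nor length was closely related to the fold. Across the 37 tested carriers, Spearman's rho between log2 fold and mean RPKM was 0.09, against 0.31 across all 12478 tested genes, and between log2 fold and the gene length behind the RPKM it was −0.20, against −0.05. These are descriptions across genes, which share libraries and depth and are not independent replicates. The carriers with the highest mean RPKM were, in order, Slc25a4, Slc25a3, Slc25a5, Slc25a39 and Slc25a24, all 5 of them among the top 10% of tested genes. The first 3 were higher in the ezrin libraries, Slc25a39 was lower and Slc25a24 was not called. After cyclic loess, which removes a trend on level, the log2 folds of these 5 were 0.66, 0.24, 0.84, −1.25 and −0.15, in that order. Without it they were 1.25, 0.89, 1.18, −1.003 and 0.09. The rank correlation does not show this shift at the highest levels.

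**Figure D4:**
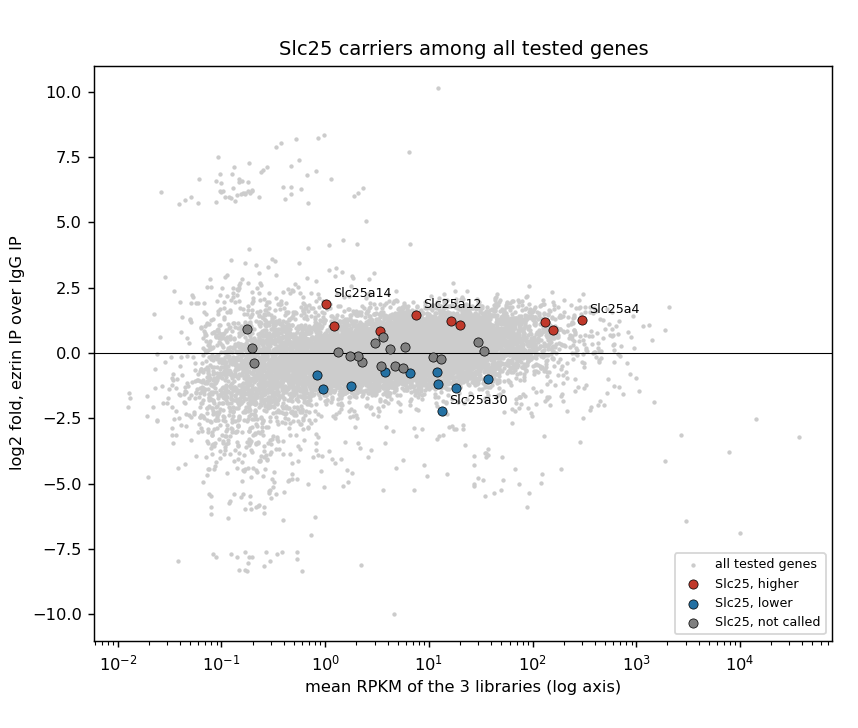
Log2 fold of ezrin IP over IgG IP against the mean RPKM of the 3 libraries (log axis), for all 12478 tested genes (grey) and the 37 tested Slc25 carriers by call. Carriers called in either direction occur up to a mean RPKM of 36.8, that of Slc25a39. The carriers above it, Slc25a5, Slc25a3 and Slc25a4, were all higher. Spearman's rho was 0.09 for the carriers and 0.31 for all genes.

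Relatives of the carriers under other symbols and the machinery around them are given beside the shares over all tested genes, of which 7930 of 12478 were not called. Of 5 family members with other names, Ucp2, an uncoupling protein, was lower at 10.6 and 8.59 CPM in the ezrin libraries against 30.8 CPM in IgG (log2 fold −1.68, edgeR adjusted p = 3.95e-09), Mtch1 and Mtch2 were not called, and Ucp1 and Ucp3 had at most 1 count. Of 16 genes that import carriers, 3 were higher (18.8%, near the 19.0% of all tested genes), none was lower (against 17.4%) and 13 were not called. The higher ones were the pore Tomm40 (log2 fold 0.82), its small partner Tomm7 (0.93) and the intermembrane chaperone Timm10 (1.02), and Tomm40 lost its call after cyclic loess (limma adjusted p = 0.0859). The median of this list was 0.17.

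Of 22 other mitochondrial membrane transporters and their regulators, 3 were higher and 3 lower (13.6% each, against 19.0% and 17.4% of all tested genes, so no more than the background), and 16 were not called. The calcium uniporter Mcu was lower (log2 fold −0.67) and its paralog Mcub, which restrains it, higher (0.73), as were the calcium sensor Micu2 (0.64) and the sideroflexin Sfxn2 (0.89). Mpc1, a subunit of the pyruvate carrier (−1.22), and Sfxn3, a serine transporter (−0.82), were lower. Each of these 6 lost its call under at least 1 alternative, Mcu, Mpc1 and Sfxn3 with RPKM, Mcub after cyclic loess, Micu2 after cyclic loess and among genes with a mean CPM of 10 or more, and Sfxn2 with DESeq2. The abundant channels Vdac1 and Vdac2 were not called (log2 folds −0.35 and 0.35). All 15 mitochondrially encoded genes were lower, with log2 folds from −5.87 to −2.91, below every tested carrier. With the ribosomal, structured and mitochondrially encoded RNAs left out before scaling and testing (12457 genes tested), 9 carriers were higher and 9 lower. The share of all genes called under that setting was not counted.

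**Figure D5:**
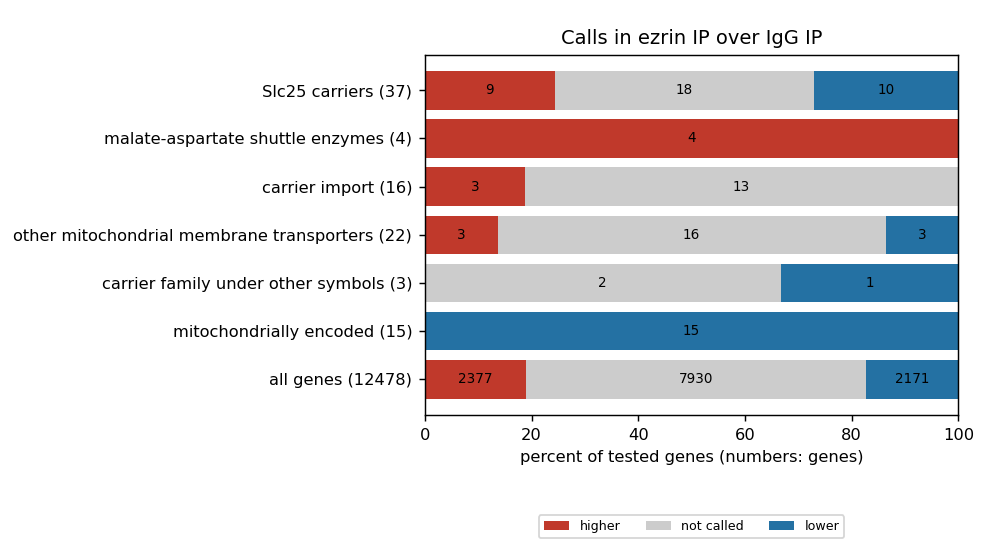
Percent of tested genes that were higher, not called or lower in ezrin IP over IgG IP by edgeR, for the Slc25 carriers, the related lists and all tested genes, with the number tested in brackets and the number of genes in each segment. The carriers split into 9 higher and 10 lower, the 4 shuttle enzymes were all higher and the 15 mitochondrially encoded genes all lower.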

How the data were processed

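RNA from ezrin IP (2 libraries) and IgG IP (1 library) was measured by RIP-seq. Deposited for each library were a table of raw counts by symbol and a table of RPKM, both made by the authors, per the file headers. The genome build was GRCm38, per the submitters' processing notes. No aligner, counter, annotation or use of strand is named in the labels or headers. Coordinates come from a RefSeq table of GRCm38, which matched all 47 carriers by symbol. Gene lengths were taken as deposited count over RPKM, scaled per library on small RNAs of known length.

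Deposited counts were tested with the quasi-likelihood method of edgeR 4.0.16 in R 4.3.3, after TMM and filterByExpr by group, with Benjamini-Hochberg adjustment over 12478 genes at 0.05. It has 1 residual degree of freedom, moderated across genes. The standard error (SE) is the fold over the square root of F and is approximate. The fit was tested on simulated data. Alternatives used RLE or library-size scaling, cyclic loess and limma 3.58.1, DESeq2 1.42.0, other filters, RPKM with 1 or 0.1 added, RNA classes left out, and single ezrin libraries. The carriers, classes and lists were chosen with earlier results of these data known. Named were the called carriers, the 3 most abundant, both extremes of fold, the adenine nucleotide, phosphate, amino acid, iron and orphan classes, and called or abundant related genes. The other carriers were added after their values were seen, and 1 tested carrier is not reported here. No sequence is printed.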

Additional observations from a re-analysis of the deposited data

How the results depend on the processing

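Across the alternatives with a test, 7 to 11 carriers were higher, against 9 as reported, and 4 to 10 lower, against 10. The share of all tested genes called under each alternative was not counted, so these counts have no background beside them. The lower calls dropped to 5 and 4 with RPKM plus 1 and plus 0.1, where the carriers' median log2 fold was 0.17 and 0.25 and that of all genes moved up by 0.24 and 0.36. Library size as the only scaling moved all genes up by 0.12 and left 10 higher and 8 lower. No called carrier changed direction under any alternative. The median lay between −0.15 and 0.019 with a single ezrin library, which allows no test and no count. Uncalled carriers changed sign in these cases: after cyclic loess Slc25a24 (−0.15) and Slc25a53 (0.016), at a mean CPM of 10 or more Slc25a24 (−0.026) and Slc25a40 (−0.072), with library size alone Slc25a29 (0.011) and Slc25a45 (0.0040), with RPKM plus 1 Slc25a15 (0.043), Slc25a29 (0.16), Slc25a10 (0.20), Slc25a11 (0.16), Slc25a45 (0.17) and Slc25a53 (0.0035), and with RPKM plus 0.1 Slc25a15 (0.059), Slc25a29 (0.22), Slc25a10 (0.22), Slc25a11 (0.17) and Slc25a45 (0.25). With ezrin replicate 1 left out, Slc25a22 (−0.066) and Slc25a35 (−0.15) changed sign, and with replicate 2 left out Slc25a29 (0.20), Slc25a40 (−0.26) and Slc25a45 (0.019). The cause was not tested. No paired analysis was possible because the groups share only replicate number 1. The single IgG library, with the fewest counts, limits every comparison, since its own spread was not measured.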
